A study of Homo sapiens with 18 samples.

Results

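Within the sgControl and sgDAMP mRNA libraries of NCI-H1975 cells, the largest axis of variation did not follow the knockout. It separates sgControl replicates 1 and 2 and sgDAMP replicate 1, called set A here, from sgControl replicate 3 and sgDAMP replicates 2 and 3, called set B. These are 6 of the 18 libraries of the series. The grouping was chosen from the counts themselves, as the one with the largest difference among these libraries. Every difference between the sets is therefore a description, is not tested, and supports no statement about a cause. The labels number the replicates but do not say whether they are separate cultures, so the axis cannot be tied to cultures from the labels.

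NCI-H1975 is an established human lung adenocarcinoma cell line. The labels name 3 conditions, each sequenced as mRNA and as ribosome footprints, the RNA stretches that ribosomes protect from nuclease, with 3 libraries per group. Scramble cells serve as their own group, sgControl cells are labelled as the CRISPR control, and sgDAMP cells as the knockout of DAMP, a peptide encoded by the lncRNA gene DSP-AS1. The study asked which lncRNAs are translated and which mRNAs depend on the peptide. All 6 libraries of the 2 sets are poly(A)-selected mRNA, and cycloheximide (100 µg/ml) is stated for the footprint samples. The sources used here do not give the guides, the number of clones or the time after editing. Set A thus holds 2 control libraries and 1 knockout library, and set B the converse, so the sets overlap in part with the condition.

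The gene lists read along this axis stand for known programmes. No list was tested as a set, and several hold members of both directions. Ribosomal protein mRNAs carry at their 5′ end a tract of pyrimidines, through which their translation follows growth signals of the mTOR pathway. Immediate-early genes such as FOS and EGR1 are transcribed within minutes of growth factor or stress signals, and mitosis genes are expressed in dividing cells. Filamins, transglutaminase and matrix proteins tie the cell to its surroundings.

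The 3 keratins KRT7, KRT8 and KRT18 were the epithelial markers at a high level in all 6 libraries. KRT8 stood at 8150 to 13800 counts-per-million (CPM), KRT7 at 2800 to 6190 and KRT18 at 2790 to 4880. In this paragraph CPM is taken over each library's total gene counts alone. Elsewhere, unless another scaling is named, CPM is also scaled between libraries by the trimmed mean of M values (TMM). EGFR stood at 46.3 to 101 CPM and CDH1, E-cadherin, at 26.1 to 57. EPCAM, at 0 to 0.859 CPM, and KRT19, at 0.401 to 1.05 CPM, were near 0, so these 2 do not bear out an epithelial label. Of the markers of other cell types, 2 of 9 fibroblast, 2 of 10 leukocyte and 1 of 7 endothelial genes passed the filter on low counts. Of all 9, 10 and 7 markers, 2, 3 and 1 had 0 counts in all 6 libraries. Their summed levels were 3.2 to 7.37 CPM in set A and 2.92 to 5.78 in set B for fibroblasts, 6.1 to 10.5 and 5.16 to 7.41 for leukocytes, and 0.815 to 1.73 and 0.916 to 2.01 for endothelium.

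DSP-AS1, the targeted gene (chr6:7540451-7543083 in GRCh38), had 19, 20.5 and 17.4 CPM in sgControl mRNA replicates 1 to 3 and 16.3, 17.9 and 20 in sgDAMP mRNA replicates 1 to 3. The mRNA levels of the 2 conditions overlapped. Footprints on DSP-AS1 were 34.1, 29.9 and 36.7 CPM in sgControl and 0, 0.164 and 0.164 in sgDAMP, which follows the labels. Its span overlaps that of DSP, the desmoplakin gene, and with no strand setting stated for the counting the reads of the pair may not be told apart.

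The 6 libraries held 17098397 to 17464782 gene counts each. Among 14032 genes that passed the filter, the first principal component held 55.7% of the variance and the second 15.7%. Scores on the first were -70, -22.1 and -11.1 for sgControl replicates 1 and 2 and sgDAMP replicate 1, and 5.3, 31.4 and 66.5 for sgDAMP replicate 3, sgControl replicate 3 and sgDAMP replicate 2. The order runs without a gap at the border of the sets. sgControl replicate 2 and sgDAMP replicate 3, on opposite sides of the border, were the closest of the 15 pairs, with a root-mean-square log2 CPM difference of 0.542. sgControl replicate 1 and sgDAMP replicate 2 were the farthest pair, at 1.17. Pairs within set A lay at 0.56 to 0.778 and within set B at 0.574 to 0.692. The axis is a gradient with 2 far ends and not a pair of separate clusters.

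**Figure D1:**
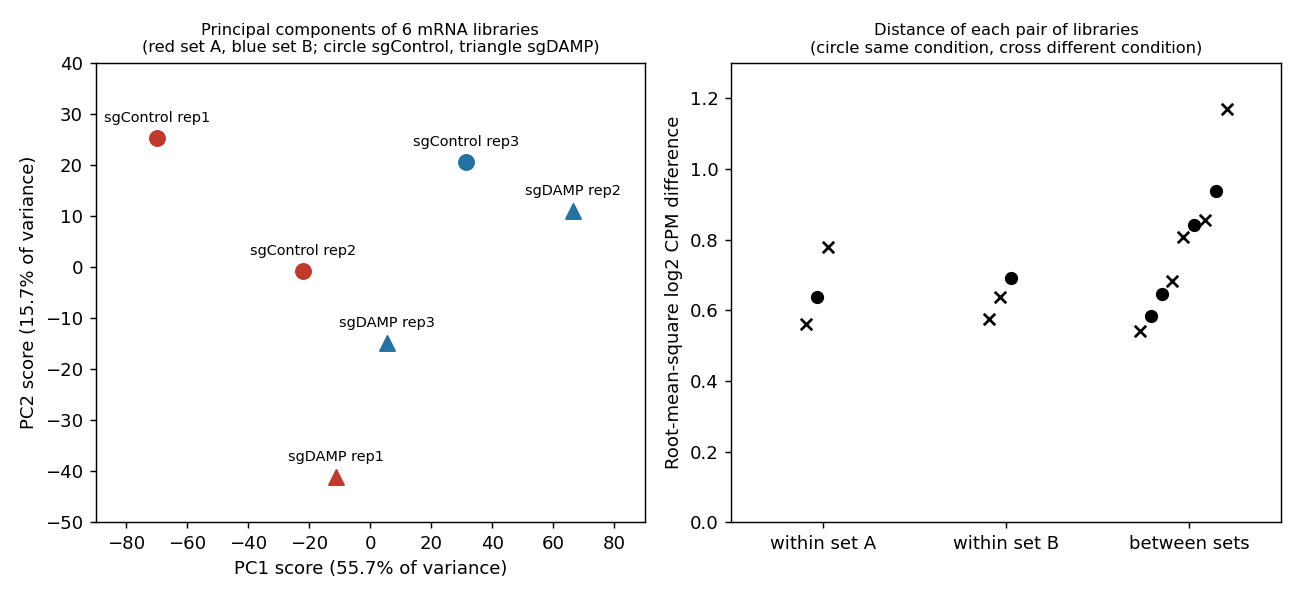
Left, scores of the 6 mRNA libraries on principal components 1 (55.7% of variance) and 2 (15.7%), with set A in red, set B in blue, circles for sgControl and triangles for sgDAMP. Right, the root-mean-square log2 CPM difference of each of the 15 library pairs, from 0.542 to 1.17, grouped by set, with circles for pairs of the same condition and crosses for pairs of different conditions; between-set pairs span the within-set range.

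Some measures of the libraries moved with the axis. Reads ambiguous between genes were 13.7% of all reads in every set A library and 14.3% to 14.7% in set B. Ribosomal protein genes took 10% to 11.8% of gene counts in set A and 16% to 19.7% in set B, the 100 most abundant genes 30.4% to 33.4% against 34.7% to 37.1%, and lncRNAs 0.424% to 0.502% against 0.54% to 0.704%. The number of reads was 22114629 to 22330435 in set A and 22484081 to 23041124 in set B. The shares of reads outside genes, of low quality and not aligned overlapped between the sets, as did the mitochondrial share, at 2.3% to 3.6% and 3.31% to 3.92%. The part of these measures in the gene differences below was not tested.

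Differences between the sets are given as the mean log2 CPM of set A minus that of set B. In 3947 of the 14032 genes (28.1%) the 3 values of one set lay entirely above those of the other, 1818 (13%) with set A higher and 2129 (15.2%) with set A lower. A difference of at least 1 on the log2 scale together with no overlap was met by 102 genes with set A higher (0.727%) and 844 with set A lower (6.01%). Leaving out 1 library at a time gave 89 to 431 higher genes and 581 to 1700 lower ones, the most in both directions without sgDAMP replicate 3. The higher count was also 429 without sgDAMP replicate 1 and 356 without sgControl replicate 3, and the lower count 1298 without sgControl replicate 2. A set of fewer libraries overlaps less by construction. Among the 102 genes 76 were protein-coding, and among the 844 genes 678 were. The 76 had a median mean log2 CPM of 0.91 and the 678 one of 2.69, against 3.66 for all coding genes tested. Only 16 of the 76 and 308 of the 678 reached a mean log2 CPM of 3, so most of the higher ones had few counts. NPTXR, at 1.001, and SNRPG, at -1 after rounding, lay just inside that limit. ZSWIM8, at 0.993, and PLS3, at -0.999, lay just outside it. Without the 2 end libraries, sgControl replicate 1 and sgDAMP replicate 2, a criterion added after seeing the data, 110 genes (0.777% of 14155) were higher and 341 (2.41%) lower.

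Among coding genes without overlap at a mean log2 CPM of at least 3, the 12 highest in set A included several of adhesion and the cytoskeleton. Over all 14032 genes the difference ran from -2.85 to 2.14, beyond the genes named here. TGM2 (chr20:38127385-38168475), the transglutaminase that cross-links matrix proteins, had 2280, 2330 and 1250 CPM in sgControl replicates 1 and 2 and sgDAMP replicate 1, and 1210, 500 and 1060 in sgControl replicate 3 and sgDAMP replicates 2 and 3. sgDAMP replicate 2 was the lowest and the sets did not overlap, with a difference of 1.13 (SD 0.51 in set A and 0.69 in set B, n = 3 each). FLNA, the filamin that cross-links actin, had 4360, 3330 and 2700 CPM in the same order of set A and 2150, 1000 and 2170 in set B. FLNA differed by 1.02 and was again lowest in sgDAMP replicate 2. LRP1, a large endocytic receptor, had 215, 203 and 177 CPM against 109, 60 and 124, a difference of 1.08. Without sgDAMP replicate 2 the differences of TGM2 and FLNA were 0.73 and 0.65.

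NR1D1, the nuclear receptor REV-ERBα of the clock, had 518, 396 and 438 CPM in set A and 289, 154 and 203 in set B, a difference of 1.1. Its span overlaps THRA, whose reads may count with it. Of 132 named genes 21 have a span that overlaps another coding gene, and not all are marked where they stand. FOSL1, an AP-1 subunit, had 520, 442 and 443 CPM in set A against 315, 174 and 218 in set B, a difference of 1.03. SDK2, an adhesion protein, differed by 1.20, from 15.7, 13.1 and 10.2 CPM to 7.71, 3.37 and 6.37. SMTN, which binds actin, and TNS4, a focal adhesion protein, differed by 1.06 and 1.02. In each of these 8 genes the level in sgDAMP replicate 2 was the lowest of the 6. ITPR3 and SLC12A7, an intracellular calcium channel and a potassium-chloride cotransporter, stood at 1.02 and 1.01, and ALOXE3 and NATD1 at 1.05 and 1.08. Without sgDAMP replicate 2, TNS4 and ITPR3 stood at 0.63 and 0.64.

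COA6 had the lowest difference among the named coding genes. COA6 (chr1:234373456-234385080), an assembly factor of cytochrome c oxidase, had 1.46, 14.1 and 9.29 CPM in set A and 22.3, 39.2 and 21.5 in set B, a difference of -2.17 (SD 1.68 and 0.48, n = 3 each). sgControl replicate 1 was far below the other 5 libraries. KATNBL1 had 1.65, 10.9 and 8.43 CPM against 21.5, 27.7 and 17.7, a difference of -2. GMFB had 3.5, 18.4 and 12.9 CPM against 33, 48.2 and 28.4, a difference of -1.90. Without sgControl replicate 1 these 3 stood at -1.21, -1.18 and -1.20, and CDK1 and MED21, at -1.55 and -1.51, were then the lowest of the 12.

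CDK1, the kinase that drives entry into mitosis, had 8.27, 22.3 and 12.4 CPM in set A and 44.9, 64.7 and 40.1 in set B, a difference of -1.88. Set B was higher in each library. PFDN4, a subunit of prefoldin, which passes unfolded chains to a chaperonin, had 9.92, 39.6 and 31.7 CPM against 85.3, 80.6 and 74.6, at -1.78. CAPZA2, a subunit of the actin capping protein, had 16.5, 52.1 and 30.5 CPM against 101, 109 and 82.3, at -1.70. TFAM, which packages and transcribes mitochondrial DNA, had 1.91, 6.31 and 8.63 against 20.1, 19.2 and 10.5, at -1.73, and its sgDAMP replicates 1 and 3 were close. ITGB3BP, SCOC, MED21, TMEM126B and SMIM30 ranged from -1.80 to -1.69. sgControl replicate 1 was the lowest library in all 12 of these genes. Without it ITGB3BP, SCOC, PFDN4 and TFAM stood at -1.10, -0.88, -1.17 and -1.10.

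**Figure D2:**
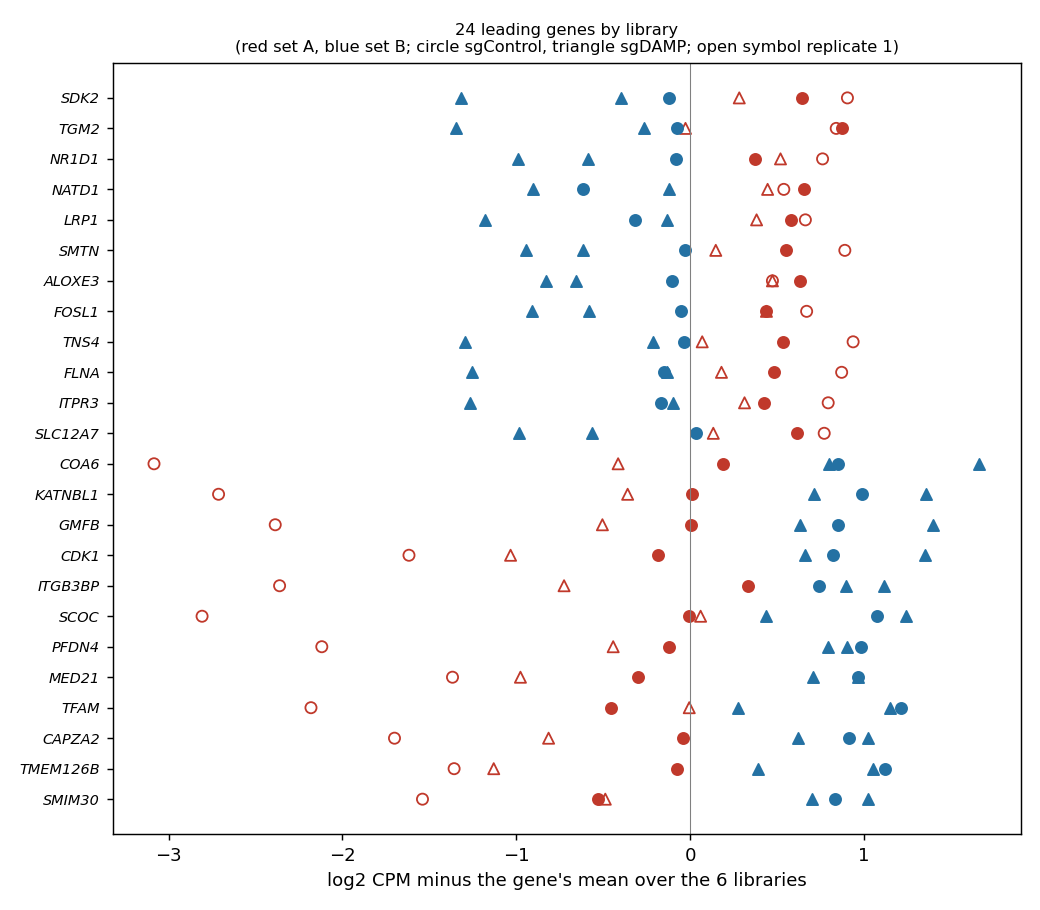
Log2 CPM minus the mean of the 6 libraries for the 12 genes highest and the 12 genes lowest in set A. They were taken among coding genes without overlap at a mean log2 CPM of at least 3. Set A is in red and set B in blue, with circles for sgControl, triangles for sgDAMP and open symbols for replicate 1. The open red circle, sgControl replicate 1, is farthest left in all 12 lower genes, and a blue triangle, sgDAMP replicate 2, is farthest left in the upper genes.

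Most ribosomal protein genes stood lower in set A. Of the 78 measured genes of the cytosolic ribosome, 62 were lower in set A without overlap (15.2% of all genes) and none higher, with a median difference of -0.73 against -0.05 for all 14032 genes. RPS7, of the small subunit, had 406, 561 and 313 CPM in set A and 1110, 1390 and 851 in set B, a difference of -1.40. RPS24 had 440, 585 and 325 CPM against 972, 1490 and 953, at -1.35. RPS3A had 386, 511 and 244 CPM against 810, 1080 and 760, at -1.27. sgDAMP replicate 1 was the lowest library for all 3, and sgDAMP replicate 2 the highest. Over the list, the median deviation from each gene's mean was -0.70 in sgDAMP replicate 1 and 0.61 in sgDAMP replicate 2. RPL26 stood at -1.34, but pseudogene copies of such genes make single values uncertain.

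The start sites of these genes are shown because the pyrimidine tract of ribosomal protein mRNAs is looked for there. The list itself is defined by the proteins, and a link of the tract to the mRNA difference was not tested. Each run covers 30 bases before to 30 bases from the RefSeq transcription start of GRCh38.p14, 5′ to 3′, and capitals mark the longest unbroken run of C and T found from 5 bases before to 15 bases after the start.
RPS7, chr2:3575230-3575289, + strand: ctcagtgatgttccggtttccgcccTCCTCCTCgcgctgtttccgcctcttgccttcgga
RPS24, chr10:78033833-78033892, + strand: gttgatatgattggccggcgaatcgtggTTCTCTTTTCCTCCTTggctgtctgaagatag
RPL26, chr17:8383164-8383223, − strand: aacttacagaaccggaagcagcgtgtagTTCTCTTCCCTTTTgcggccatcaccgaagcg
RPS3A, chr4:151099598-151099657, + strand: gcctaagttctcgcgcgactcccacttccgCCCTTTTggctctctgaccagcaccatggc
The runs are 8, 16, 14 and 7 bases long in RPS7, RPS24, RPL26 and RPS3A. That of RPS7 begins at the edge of the searched stretch, 5 bases before the start, and its pyrimidines continue upstream. The runs of RPS7, RPS24 and RPL26 begin before the start, so part of each lies outside the transcript. Over the 62 ribosomal protein genes with a RefSeq window the median longest run was 10 bases, against 4 in 9916 coding genes. A run of at least 8 was present in 45 of the 62 (72.6%) and in 850 of the 9916 (8.57%). A run of these letters describes the window only.

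Of 47 nuclear-encoded respiratory chain genes, 21 were lower in set A without overlap (15.2% of all genes) and none higher, and 11 of the 47 had a difference above 0. Their median was -0.59, and -0.33 without sgDAMP replicate 1. ATP5F1C, a subunit of ATP synthase, stood at -1.22, with 211, 319 and 165 CPM against 500, 637 and 446. COX7B and COX7C, subunits of cytochrome c oxidase, stood at -1.20 and -1.19. NDUFB5, of complex I, was at 0.572, 8.31 and 9.45 CPM against 14.1, 21.3 and 11.7, at -2.01, and at -0.77 without sgControl replicate 1. The 13 mRNAs of the mitochondrial genome had a median of 0.18, from 0.09 without sgDAMP replicate 2 to 0.42 without sgControl replicate 1. One of them, MT-ND1, lay without overlap, at 0.48 and at 0.29 without sgDAMP replicate 2.

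Noncoding host genes of small nucleolar RNAs and nuclear lncRNAs followed, with 8 of 17 lower in set A without overlap (15.2% of all genes) and a median of -0.71. GAS5, such a host gene, had 164, 192 and 132 CPM against 367, 444 and 232, at -1.06, with a span that overlaps ZBTB37. SNHG8 stood at -0.99, with 51.9, 56.3 and 43.6 CPM against 90.6, 139 and 79.1. MALAT1 had 0.763, 5.69 and 5.36 CPM in set A and 26.5, 6.4 and 5.96 in set B, at -1.75. Only sgControl replicate 3 was high and sgControl replicate 1 low, and the other 4 libraries were close. Without sgControl replicate 1 it stood at -0.85 and without sgControl replicate 3 at -1.04. MALAT1 is a nuclear RNA that ends without a usual poly(A) tail. LINC00973, a lncRNA, had 16.6, 21.2 and 19.7 CPM against 49, 53.3 and 31.3, at -1.18. URB1-AS1 and SNHG30 stood at -1.26 and -1.21.

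Cell cycle lists showed opposite members. Of 39 mitosis genes, 14 were lower without overlap and 2 higher, with a median of -0.38, beside 15.2% lower and 13% higher among all genes. HMMR, a spindle protein, stood at -1.54, and MAD2L1 and TTK, of the spindle checkpoint, at -1.49 and -1.30. Without sgControl replicate 1 HMMR stood at -0.85. FOXM1, the transcription factor that drives mitotic genes, and MKI67, the proliferation marker, were higher in set A, at 0.71 and 0.49. Among 41 DNA replication genes 9 were lower and 2 higher, with POLE2 at -1.11 and POLE at 0.82, both subunits of DNA polymerase epsilon, and POLE at 0.50 without sgDAMP replicate 2. Among 19 replication-dependent histones 3 were lower and none higher, and the lower share is near the 15.2% of all genes.

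Of 21 immediate-early and serum-response genes 7 were higher in set A without overlap (13% of all genes) and none lower. Their median was 0.59, and 0.38 without sgDAMP replicate 2. The median deviations were 0.43, 0.19 and 0.18 in set A. In sgControl replicate 3 and sgDAMP replicates 2 and 3 they were 0.12, -0.51 and -0.43, so sgControl replicate 3 lay near set A. EGR1 had 51.2, 40.7 and 49.5 CPM in set A and 39.3, 21.6 and 18.2 in set B, at 0.91. FOSB stood at 0.92 and ZFP36, which promotes decay of AU-rich mRNAs, at 0.79 and at 0.50 without sgDAMP replicate 2. Of 30 TGF-β and matrix genes 13 were higher and none lower, with a median of 0.50. FN1, fibronectin, had 562, 590 and 581 CPM against 327, 255 and 382, at 0.87, although its span overlaps ATIC. LAMB3, a laminin chain, had 448, 403 and 300 CPM against 261, 145 and 209, at 0.93, and LOXL2, a matrix lysyl oxidase, stood at 0.88 and at 0.54 without sgDAMP replicate 2.

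Lung and lineage genes had a median of 0.56, and 0.37 without sgDAMP replicate 2, with 5 of 15 higher without overlap (13% of all genes). MUC5B, a gel-forming mucin, had 882, 1000 and 934 CPM against 463, 382 and 863, at 0.81. sgDAMP replicate 3 lay near set A in this gene. HNF4A and FOXA2, transcription factors of endoderm, stood at 0.81 and 0.58, and FOXA2 at 0.32 without sgDAMP replicate 2. Among 24 inflammatory NF-κB genes 7 were higher and 1, BIRC3, lower at -1.23. The median of this list was 0.27, and 0.07 without sgDAMP replicate 3. Its median deviations were 0.27, 0.24 and 0.29 in sgControl replicates 1 to 3 and 0.04, -0.30 and -0.32 in sgDAMP. sgControl replicate 3, of set B, was thus the highest library, and the list did not follow the sets. NFKB2, a subunit of NF-κB, had 464, 386 and 314 CPM against 261, 154 and 188, at 0.96, and ICAM1, an adhesion receptor, stood at 1.

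Among 25 clock and quiescence genes 6 were higher and 1 lower, beside 13% and 15.2% of all genes, with TEF at 0.88, PER1 at 0.79 and CCNG2 at -0.98. Lists with both directions were also found. Among NRF2 target genes TXN, thioredoxin, had 426, 688 and 395 CPM against 1130, 1500 and 1130, at -1.35, and the reductases AKR1C3 and AKR1B10 stood at -0.96 and -0.81, while the transporter ABCC3 stood at 0.75 and at 0.49 without sgDAMP replicate 2. Of the sterol enzymes, SC5D, MSMO1 and IDI1 stood at -1.46, -1.27 and -1.23 and LSS at 0.88. Without sgControl replicate 1 SC5D and MSMO1 stood at -0.91 and -0.74, and without sgDAMP replicate 2 LSS stood at 0.58. IFIT1, an interferon-induced protein, had 95.9, 152 and 105 CPM against 316, 372 and 203, at -1.32, and overlaps LIPA, whereas STAT2 stood at 0.69. NPM1, a nucleolar histone chaperone, had 238, 313 and 255 CPM against 654, 746 and 333, at -1.03, while POLR1A, a subunit of RNA polymerase I, stood at 0.75 and at 0.47 without sgDAMP replicate 2. The medians of the interferon, hypoxia and ribosome biogenesis lists lay between -0.04 and 0.01, and that of ribosome biogenesis turned to -0.07 with upper-quartile and -0.02 with total-count scaling.

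Other signalling and lineage lists held 1 to 3 higher genes without overlap, to be read beside 13% of all genes higher and 15.2% lower. Of 18 glycolytic enzymes 3 were higher and 1 lower, with HK1, a hexokinase, at 0.75. Their median was 0.43, and 0.28 without sgDAMP replicate 2. Of 11 keratins 1, KRT80, was higher, at 0.59 and at 0.35 without sgDAMP replicate 2. The keratin median was 0.47, with 10 of the 11 above 0, and 0.26 without sgDAMP replicate 2. The EGFR-RAS-ERK feedback list had 3 of 18 higher, among them SPRY4 at 0.76, the YAP-TEAD list 3 of 19, among them ARHGEF17 at 0.85, and the junction list 3 of 18, with JUP, plakoglobin, at 0.81. EGFR ligands and receptors had 2 of 10 higher, ERBB2 at 0.66 and ERBB3 at 0.30. The medians of the EGFR-RAS-ERK, YAP-TEAD and junction lists were 0.27, 0.28 and 0.16, and that of EGFR ligands and receptors -0.10.

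Stress and metabolic lists were mixed, to be read beside 13% of all genes higher and 15.2% lower. In the integrated stress response 8 of 30 were higher and 2 lower, with PPP1R15A, which restarts translation, at 0.76 and MTHFD2, a mitochondrial folate enzyme, at -1.13. Of 26 p53 targets 7 were higher and 3, CCNG1, FAS and PMAIP1, lower at -1.35, -1.06 and -0.97, and FAS at -0.69 without sgControl replicate 1. Of 29 lysosome and autophagy genes 7 were higher and 2 lower, with ULK1, the autophagy kinase, at 0.68. Of 14 fatty acid synthesis genes 3 were higher and 2 lower, with FASN, fatty acid synthase, at 0.83 and ELOVL6, an elongase, at -0.87. ER chaperones had 2 of 21 higher and 3 lower, with DNAJB9 at -1.24, and heat shock proteins 4 of 20 higher and 2 lower. Among 22 KRAB zinc finger genes none was higher and 3 were lower, a share below that of all genes, with ZNF226 at -1.35.

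**Figure D3:**
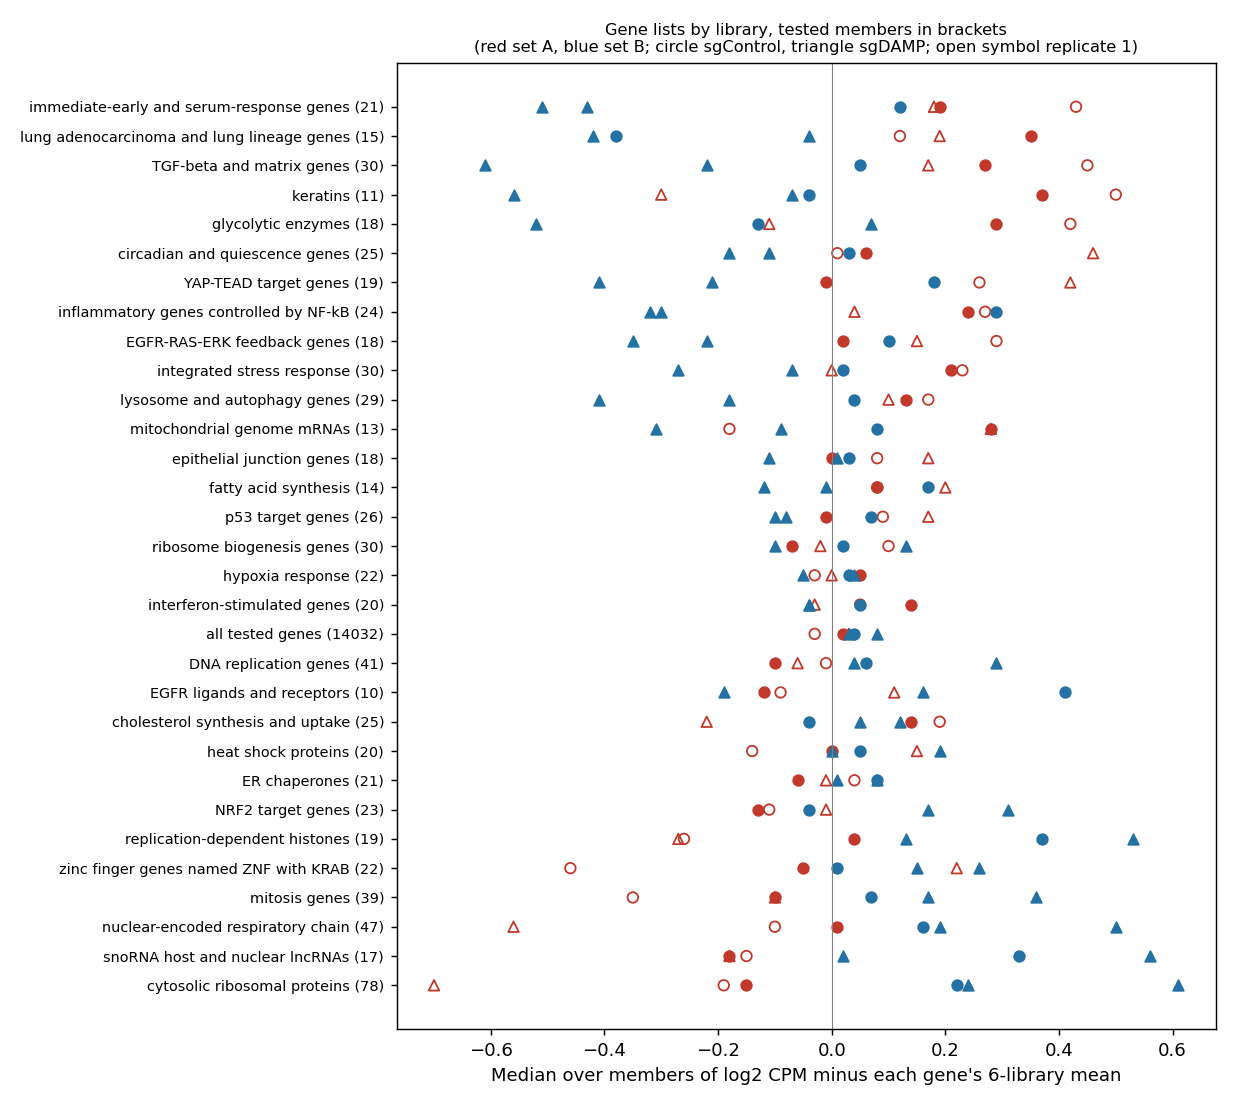
For each gene list, the median over tested members (number in brackets) of log2 CPM minus the gene's 6-library mean, by library, with set A in red, set B in blue, circles for sgControl, triangles for sgDAMP and open symbols for replicate 1. For cytosolic ribosomal proteins the library medians run from -0.70 in sgDAMP replicate 1 to 0.61 in sgDAMP replicate 2, with all red symbols left of all blue ones.

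Genes higher in set A without overlap lay on gene-dense, GC-rich chromosomes more often. Of the 1701 such coding genes 34.2% lay on chromosomes 16, 17, 19 and 22, against 10.2% of the 1753 lower ones and 20.8% of all 12115 coding genes tested. Across deciles of the difference, this share ran from 5.94% in the lowest to 35.6% in the highest. The GC content of the RefSeq window of 250 bases before to 50 after the start had a median of 67.7% for the higher genes (81% with a window) and 62.7% for the lower (84.6% with a window), against 65.7% for all (81.8%). The interquartile ranges were 61.7% to 74.3%, 56.3% to 69% and 59% to 72%. The higher genes had a median mean log2 CPM of 5.39, the lower 3.6 and all 3.66, and the median genomic span was 30.8, 26 and 30.8 kb. These values stand beside the axis, and their part in it was not tested.

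**Figure D4:**
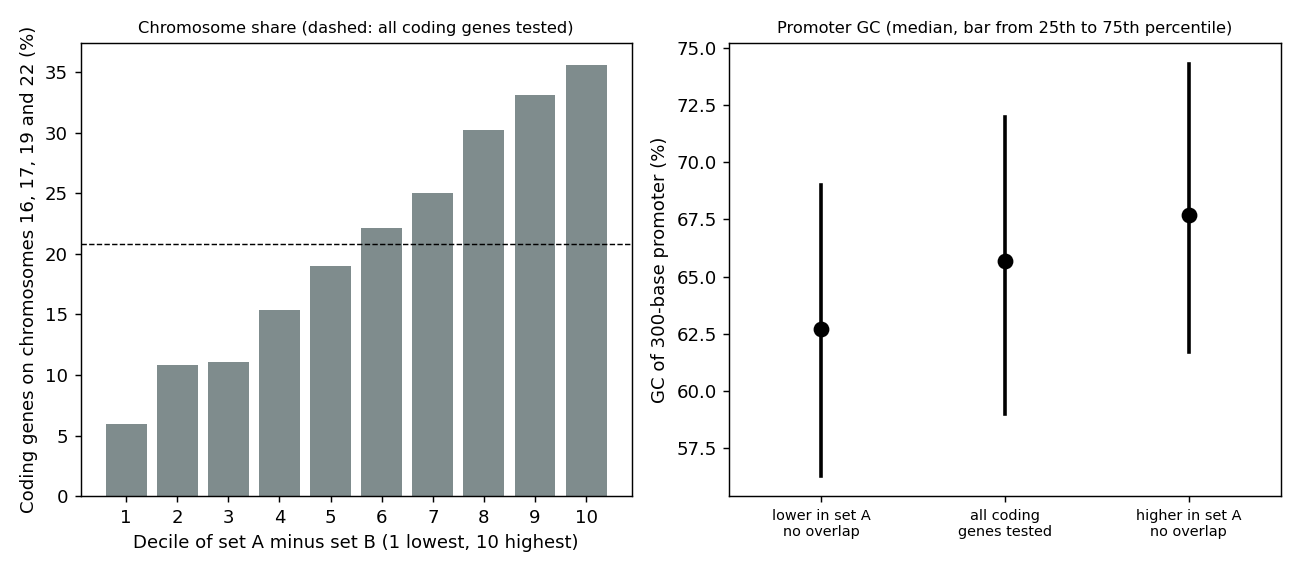
Left, the share of coding genes on chromosomes 16, 17, 19 and 22 by decile of the set A minus set B difference (bars from 0, dashed line at 20.8% for all). Right, promoter GC content as a median with a bar over the interquartile range, at 62.7%, 65.7% and 67.7%.

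Footprints of the same conditions are independent of how the sets were chosen. The footprint libraries bear replicate numbers 1 to 3, but the labels do not tie a number to the mRNA library of the same number. Replicate 3 was set against replicates 1 and 2 in sgControl and replicate 1 against 2 and 3 in sgDAMP, by an exact binomial test per gene with Benjamini-Hochberg adjustment, which covers counting error only. In sgControl 34 of 12195 genes (0.279%) were called and in sgDAMP 18 of 12454 (0.145%). Few genes thus differed beyond counting error between footprint libraries of a condition, but some did. In sgControl replicate 3 against 1 and 2, ENO1 stood at -0.29 on the log2 scale, CDK4 at -0.34 and PTPN14 at -0.5. Of 9355 coding genes measured in sgControl, 24 were called lower in replicate 3 and 4 higher. The labels do not say whether footprint libraries are repeats of 1 library, so they are not used as replicates.

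Of the coding genes past the fold limit, 24 of the 76 higher ones were measured in sgControl footprints and in sgDAMP footprints, and 0 were called in either. Of the 678 lower ones 581 were measured in sgControl footprints, where 1 was called, and 592 in sgDAMP footprints, where 0 were called. The called gene was MNAT1, a cofactor of the CDK-activating kinase, with footprint replicate 3 higher by 0.15 on the log2 scale. Among all coding genes measured, 4 were called higher and 24 lower of 9355 in sgControl replicate 3. In sgDAMP replicate 1 it was 2 higher and 6 lower of 9634. Calls were thus rare in all coding genes, and their near absence here is no result about these genes. COA6 footprints were 107, 101 and 106 CPM in sgControl replicates 1 to 3 and 127, 128 and 120 in sgDAMP. FLNA footprints were 240, 247 and 237 in sgControl and 321, 334 and 354 in sgDAMP. RPS7 footprints were 1570, 1580 and 1580 in sgControl and 1430, 1490 and 1510 in sgDAMP. The 3 footprint values of each condition lay close together in these genes.

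Over abundant coding genes past the fold limit (308 lower and 16 higher), the median deviation from the group mean was followed by library. The lower genes stood at -0.80, -0.01 and 0.83 in sgControl mRNA replicates 1 to 3 and at -0.85, 0.78 and 0.04 in sgDAMP mRNA. In the footprint libraries the same genes stood between 0.00 and 0.01, and in Scramble mRNA at -0.05, 0.08 and -0.02. The median SD over a group for these genes was 0.83 and 0.84 in sgControl and sgDAMP mRNA, 0.06 and 0.07 in their footprints and 0.09 in Scramble mRNA. Over all 7167 abundant coding genes it was 0.31 and 0.37 in mRNA, 0.10 and 0.09 in footprints and 0.10 in Scramble mRNA. The mRNA values chose these genes, so their large mRNA spread is a description. Scramble libraries were scaled apart from the 6 others, so levels set across them are approximate. Their read make-up also differed. Reads outside genes were 42.5% to 43.2% in Scramble mRNA against 1.1% to 1.43% in the 6 libraries. Ambiguous reads were 3.13% to 3.21% against 13.7% to 14.7%. The Scramble spread and levels thus come from libraries of another make-up, and the part of this was not tested. Scramble mRNA levels of COA6 were 75, 83.4 and 79.4 CPM, above all 6 libraries, and those of CDK1 were 8.71, 10.2 and 8.81, near the low end.

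**Figure D5:**
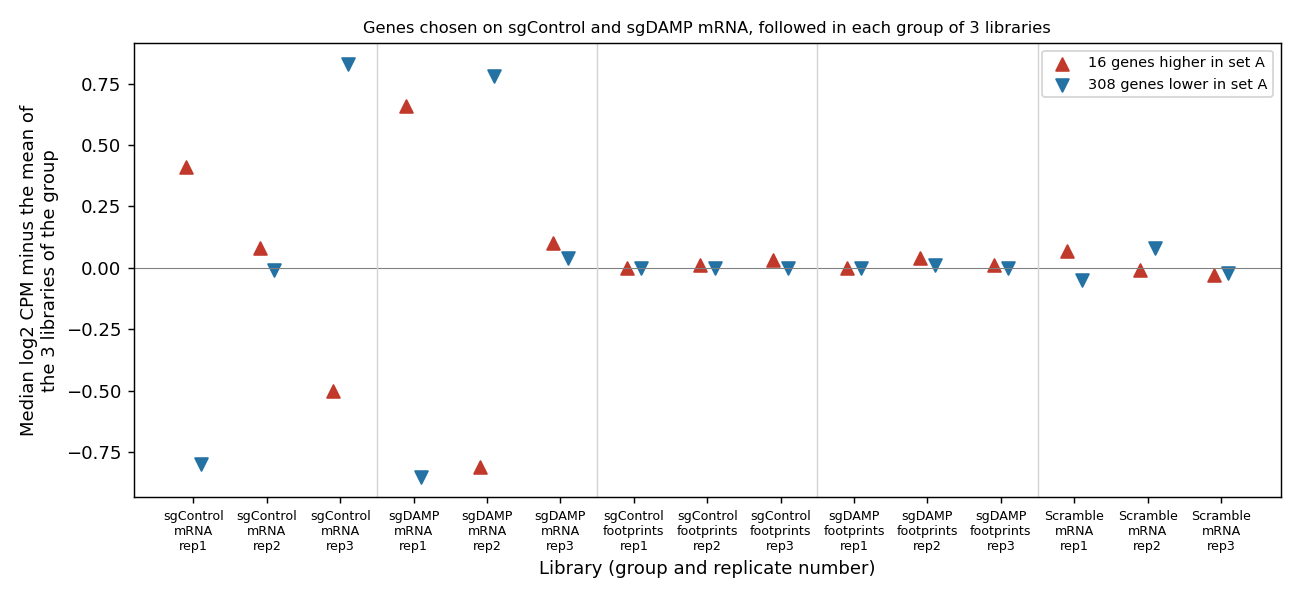
Median over abundant coding genes past the fold limit of log2 CPM minus the mean of the 3 libraries of the group, by library, for 16 genes higher in set A (red upward triangles) and 308 lower (blue downward triangles). The lower genes span -0.80 to 0.83 in sgControl mRNA and lie between 0.00 and 0.01 in the footprint libraries.

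In the comparison that the labels give, sgDAMP against sgControl mRNA, edgeR's quasi-likelihood test called 0 of 14032 genes (0%) at a Benjamini-Hochberg adjusted p of 0.05. The smallest adjusted p was 0.22, 741 genes had an unadjusted p under 0.05, DESeq2 called 21 and limma-voom 0. This comparison shares all its libraries with the sets, so the following are each comparison's own values. TGM2 stood at -1.05 (SE 0.38) between sgDAMP and sgControl, FLNA at -0.74 (SE 0.38), COA6 at 0.89 (SE 0.67) and CDK1 at 0.63 (SE 0.57), each with an edgeR adjusted p of 0.862. The coding genes past the fold limit had a median knockout difference of -0.67 for those higher in set A and 0.46 for those lower. The sets overlap in part with the condition, so these signs follow in part from the choice of genes and support nothing. Within set A and within set B the medians were -0.32 and -0.48 for the higher genes and 0.27 and 0.02 for the lower, and were not tested.

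The set difference of those genes was also read within each condition. Its sign was fixed by the choice of genes without overlap, so these medians give sizes only and support nothing. Within sgControl, replicates 1 and 2 against 3, the medians were 0.92 for the higher and -1.34 for the lower genes. Within sgDAMP, replicate 1 against 2 and 3, they were 1.06 and -1.11. Ribosomal proteins had medians of -0.40 within sgControl and -1.14 within sgDAMP, respiratory chain genes -0.24 and -0.85, and immediate-early genes 0.28 and 0.68. NF-κB genes had -0.10 and 0.30, of opposite sign. The 2 conditions were not tested against each other.

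Conversely, sgDAMP minus sgControl was read within each set, 1 library against 2. Ribosomal proteins stood at a median of -0.54 within set A and 0.16 within set B, and respiratory chain genes at -0.54 and 0.15, so the sign depended on the set. The NF-κB list stood at -0.32 and -0.74 and keratins at -0.81 and -0.29. CXCL8, the neutrophil chemokine, had 98.3 and 231 CPM in sgControl and 32.9 in sgDAMP within set A, and 664 in sgControl and 135 and 67.4 in sgDAMP within set B. Its knockout difference was -2.19 within set A and -2.80 within set B, and -2.08 (SE 0.60, edgeR adjusted p = 0.862) over all 6 libraries, whereas its levels overlapped between the sets. CSF2, a myeloid growth factor at under 2 CPM, stood at -1.79 and -1.71 within the sets and -2.14 (SE 0.58) over all. DSP, the desmosomal protein whose gene lies antisense to DSP-AS1, stood at -0.27 and -0.52 within the sets and 0.66 between them. YTHDF1, a reader of methylated adenosine in mRNA, stood at -0.04 between the sets and DSP-AS1 at 0.01.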

How the data were processed

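Raw counts per gene were deposited by the authors as 1 table per library in the form HTSeq writes, with 61487 gene identifiers and 5 closing lines on unassigned reads. Per the submitters' processing notes, Trimmomatic 0.30, HISAT2 2.1.0, SAMtools 1.10, HTSeq 0.11.2, edgeR and the GRCh38 build were used. The sources used here give neither their roles nor the annotation release and strand setting. The closing lines were left out of library sizes. Symbols matched 61369 identifiers, and start-site windows came from RefSeq GRCh38.p14.

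Counts of the 6 mRNA libraries were filtered with filterByExpr (minimum count 10), TMM-scaled and turned into log2 CPM with prior count 2 in edgeR 4.0.16 (R 4.3.3, limma 3.58.1, DESeq2 1.42.0). The knockout was fitted with edgeR's quasi-likelihood test, its SE taken as the log2 change over the root of F. The footprint libraries and the Scramble mRNA libraries were each TMM-scaled apart, over the same genes. Footprints with at least 30 summed counts were tested with an exact binomial test. All tests are two-sided. The knockout p-values measure only the spread between these libraries, which may be technical, and the footprint p-values only counting error. The scripts were tested on simulated data.

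Named genes are the 12 highest and 12 lowest coding genes without overlap at a mean log2 CPM of at least 3, up to 4 members per list without overlap at a mean log2 CPM of at least 1, the 4 leading lncRNAs, DSP-AS1, DSP, YTHDF1, CXCL8 and CSF2. FOXM1 and MKI67 were named after their values were seen. Named genes whose span overlaps another coding gene, unmarked above, include ITGB3BP, SMIM30, IDI1, MTHFD2, CCNG1, FAS, ERBB2 and TEF. Sets, genes and all 33 lists were chosen with earlier results of these data known. Alternatives were other scalings, filters, prior counts, fold limits, tools, a replicate block and leaving out each library.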

Additional observations from a re-analysis of the deposited data

How the results depend on the processing

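Gene differences and list medians were recomputed under 3 scalings, without each library and without the 2 end libraries, and not under other filters or prior counts. Gene differences stayed within 1 SD in 1298 of 1320 recomputations and list medians in 298 of 330, where leaving out libraries was added after seeing the data. The SD is the pooled spread of the libraries within the sets, of a gene's values or a list's medians. Leaving out 1 library moves a gene's difference by less than this SD almost by construction. The tally therefore does not show that sizes held. NDUFB5 went from -2.01 to -0.77 without sgControl replicate 1 and still lay within it. Among the named genes signs changed for DSP-AS1, YTHDF1 and CSF2, whose sets overlap, and among lists for the medians of EGFR ligands, interferon, cholesterol, hypoxia, ribosome biogenesis, heat shock, fibroblast and endothelial genes. The counts of genes past the fold limit moved more. The 102 genes higher in set A became 67 with upper-quartile scaling, 264 without a filter, 59 with at least 10 counts in each library, 61 with prior count 5 and 1134 at a log2 limit of 0.58, and ran from 89 to 431 when each library was left out. The highest were 431 without sgDAMP replicate 3, 429 without sgDAMP replicate 1 and 356 without sgControl replicate 3. The 844 lower genes became 341 in the 4 middle libraries and 1691 at 0.58, and ran from 581 to 1700, the highest without sgDAMP replicate 3, with 1298 without sgControl replicate 2. A set with fewer libraries overlaps less by construction, and other causes were not tested. Against TMM, the median gene shifted by 0.04 with DESeq2 size factors, -0.08 with upper-quartile and -0.03 with total-count scaling.

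The knockout count of 0 became 14 without a filter and 21 with DESeq2's Wald test, and ran from 0 to 6 when each library was left out, with 6 without sgControl replicate 3. The 34 genes called in sgControl footprints ran from 27 without replicate 1 to 45 without replicate 2. The 18 called in sgDAMP footprints became 8 among coding genes alone and ran from 10 without replicate 3 to 29 without replicate 2. Leaving out the footprint replicate that stands alone in its comparison leaves none and was not run. With the replicate number as a block, the knockout count was 0. Deviations of same-numbered sgControl and sgDAMP mRNA libraries correlated at 0.372, -0.197 and -0.409 for replicates 1, 2 and 3. These 3 values cannot decide whether same-numbered libraries share more than a number, and no pairing was assumed. The depth of 17098397 or more counts limits genes of few counts most.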
